A study of Mus musculus with 8 samples.

Results

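The transcripts described here are the small nucleolar RNAs (snoRNAs) on a whole-transcript microarray of mouse heart, 51 of the 19938 genes tested. A gene was taken when a row of the deposited table carried exactly 1 symbol and that symbol began with Snora (box H/ACA class) or Snord (box C/D class), which gave 20 box H/ACA and 31 box C/D snoRNAs. They came from 56 rows, and for the 5 snoRNAs with more than 1 row the row with the highest mean over the 8 hearts was used. Symbols alone decided which snoRNAs were members, and measured levels entered only in that choice between rows, without regard to group.

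The hearts came from 4 MHC-Plin5 mice, in which Plin5 (perilipin 5, a lipid droplet coat protein) is over-expressed in cardiomyocytes under an MHC promoter, and from 4 control mice. All 8 mice were males of a c57/bl background, fasted, and 12 weeks old when the hearts were taken. The labels name the comparison genotype only as control, and they do not say which MHC gene the promoter comes from or whether the line rests on more than 1 founder. Expression was measured once per heart, in total RNA, on 1 array each.

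SnoRNAs are short RNAs that work in the nucleolus inside protein particles. Box C/D snoRNAs guide the methylation of riboses in ribosomal RNA, and box H/ACA snoRNAs guide the conversion of uridines to pseudouridines. A few of them (U8, U17, U22) instead take part in the cleavage of the ribosomal RNA precursor. In mice most snoRNAs lie in introns of other genes, many of which code for ribosomal proteins or other parts of the translation machinery, and they are trimmed out of the intron after splicing. An intron probe set can read the mature snoRNA and the unspliced RNA of the containing gene, and these cannot be told apart here. Since whole hearts were used, fewer cells of a type and less RNA per cell cannot be told apart either.

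By RefSeq coordinates, 50 of the 51 snoRNAs lay within at least 1 other gene, the exception being Snord118. These were 42 containing genes, of which 16 code for ribosomal proteins and 9 are noncoding. The table used gives no strand for the snoRNAs, so a containing gene could not be checked for the same strand. Of the snoRNAs, 8 of 20 in the box H/ACA class and 13 of 31 in the box C/D class lay in ribosomal protein genes. Promoter sequence was at hand for 31 containing genes. A C at the annotated start followed by at least 3 further pyrimidines, the start of the tract that marks many translation genes, was found in 7 of them (22.6%) and in 4.49% of all 27025 genes with a promoter. The palindrome CACGTG, searched from 250 bases before to 50 bases after the start, was found in 6 (19.4%) and in 8.09% of all genes. Both motifs were searched at any listed start of a gene on the strand of the gene, and a match is only a match of letters. The stretches below are those of the genes that contain the 5 box C/D snoRNAs called higher in MHC-Plin5 hearts. They are shown from 90 bases before the start to 10 bases from it, read along the gene, from RefSeq on GRCm38.p6. Capitals mark the start tract where it was found.
2410006H16Rik (contains Snord49a and Snord49b; chr11:62602787-62602886, plus strand): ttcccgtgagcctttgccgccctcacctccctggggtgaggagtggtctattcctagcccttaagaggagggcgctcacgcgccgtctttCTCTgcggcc
Gm36220 (contains Snord104; chr11:106500825-106500924, plus strand): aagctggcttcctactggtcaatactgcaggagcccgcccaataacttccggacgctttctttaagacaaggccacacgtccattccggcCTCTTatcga
Ncl (contains Snord82 and Snora75; chr1:86359446-86359545, minus strand): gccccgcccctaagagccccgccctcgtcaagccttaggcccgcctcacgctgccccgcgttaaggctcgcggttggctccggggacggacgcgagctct
Rps3 (contains Snord15a and Snord15b; chr7:99483700-99483799, minus strand): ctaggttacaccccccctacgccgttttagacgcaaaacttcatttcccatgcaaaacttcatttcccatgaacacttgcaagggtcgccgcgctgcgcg
The tract stands at the start of the 2 noncoding genes and is not in these letters at the annotated start of Ncl or Rps3. The CACGTG of Gm36220 begins 102 bases before the start, outside the printed stretch.

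Values are log2 RMA levels, so that a difference of 1 is a doubling of signal. A gene was called when limma's test over all 19938 genes gave a Benjamini-Hochberg adjusted p under 0.05, and every difference is MHC-Plin5 minus control. Plin5 itself rose from a control mean of 8.85 ± 0.20 to 12.39 ± 0.31 (SD, n = 4 each), as the genotype labels state. The hearts correlated over all genes with r from 0.974 to 0.995. MHC-Plin5 4 and control 2 stood apart from the rest, with array medians of 6.18 and 6.25 against 5.99 to 6.04 in the other 6, and with the lowest array weights, 0.408 and 0.491. Because the snoRNA values of MHC-Plin5 4 were among the most deviant of that array, each class is given with and without it. Markers of 9 cell types, 35 genes in all of which 33 were measured, gave 0 called genes by limma. Of all genes, 2.08% were called higher and 1.17% lower. At an unadjusted p under 0.05 the markers Nppa (atrial), Pdgfra (fibroblast) and Ptprc (leukocyte) were higher, against 8.69% of all genes. The log2 levels of the markers were summed over each set and are given as the range over control and then over MHC-Plin5 hearts. The 4 atrial markers varied most, from 31.1 to 46.4 and from 34.3 to 45.7, and the median difference of this set was 0.87 with 4 of 4 above 0. The 3 adipocyte markers, with a median of -0.58 and 0 of 3 above 0, summed to 16.6 to 21.8 and 16.1 to 18.2. Leukocyte markers (4) summed to 30.2 to 32.1 and 31.3 to 34.4, and fibroblast markers (4) to 38.8 to 40.7 and 39.5 to 41.7, each with 4 of 4 above 0. The 6 cardiomyocyte markers, with a median of -0.13 and 1 of 6 above 0, summed to 81.1 to 81.5 and 79.8 to 81.4. The 4 endothelial ones, with a median of -0.15 and 1 of 4 above 0, summed to 41.5 to 41.9 and 40.6 to 41.4. Those of smooth muscle, with 2 of 3 above 0, summed to 27.3 to 28.9 and 27.0 to 30.2. Neuron markers, with 1 of 4 above 0, gave 23.2 to 24.2 and 23.2 to 23.6. The 1 measured erythroid marker, with a difference of -0.21, gave 9.08 to 10.2 and 8.38 to 10.4. The part of these cell types in the snoRNA values was not tested.

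In the box C/D class Snord49a, Snord49b, Snord104, Snord15a and Snord82, all guides of ribose methylation, rose by 1.5 to 2.0-fold in MHC-Plin5 hearts. These were 5 of 31 (16.1%), against a background of 2.08% of all genes called higher. None fell (0 of 31 by limma, also 0 at an unadjusted p under 0.05), where 1.17% of all genes were called lower. At an unadjusted p under 0.05, 12 of 31 were higher, against 8.69% of all genes. The difference was above 0 in 28 of the 31 with a median of 0.26, while it was above 0 in 42.5% of all genes with a median of -0.03. In 10 of the 31 (32.3%) all 4 MHC-Plin5 hearts lay above all 4 control hearts, which held for 6.24% of all genes. The opposite held for 0 of 31, and for 5.0% of all genes.

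The box H/ACA class had no called member. By limma 0 of 20 were called higher or lower, where 2.08% and 1.17% of all genes were. At an unadjusted p under 0.05, 5 of the 20 were higher and 0 lower, against 8.69% and 7.86% of all genes. The difference was above 0 in 17 of the 20 with a median of 0.32. In 1 of the 20 (5.0%), Snora69, all 4 MHC-Plin5 hearts lay above all controls, a share near the 6.24% of all genes. Without MHC-Plin5 4 the box H/ACA median was 0.11, with 16 above 0, 3 higher at an unadjusted p under 0.05 (9.48% of all genes) and 0 called. The box C/D median without that heart was 0.23, with 5 of 31 called higher, against backgrounds of 3.08% higher and 2.81% lower among all genes. One of those 5 was Snord47 in place of Snord82. The difference between the classes was not tested.

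**Figure D1:**
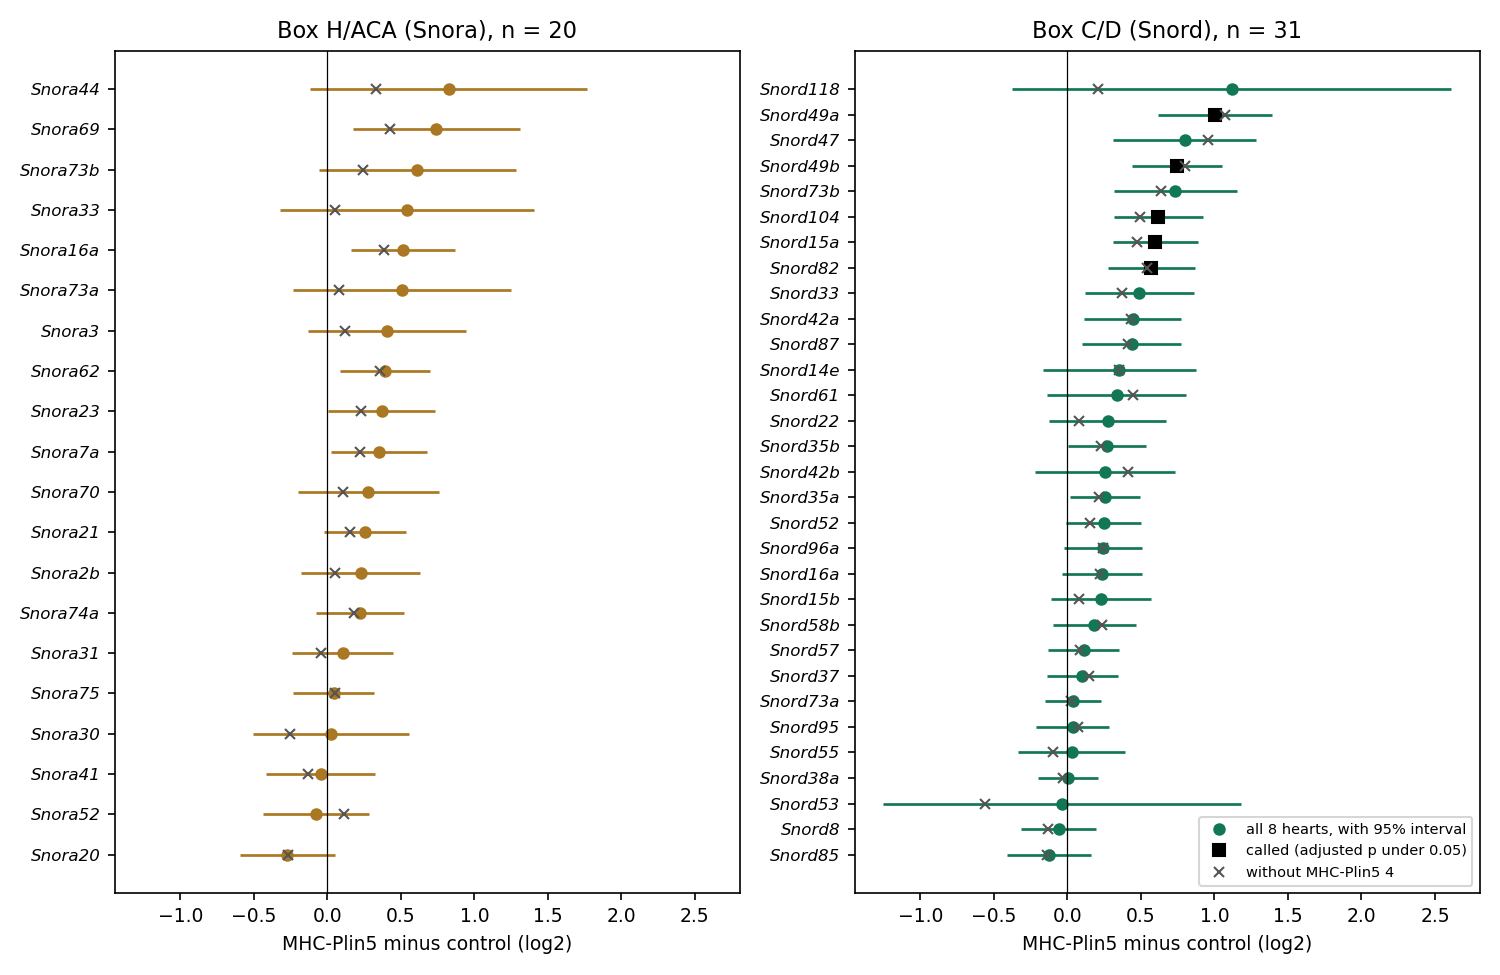
Difference in log2 level, MHC-Plin5 minus control (horizontal axis), for each of the 20 box H/ACA snoRNAs (left) and 31 box C/D snoRNAs (right), ordered by the difference. Points and bars are the limma estimate over all 8 hearts with its 95% interval, and squares mark the 5 called genes. Crosses mark the estimate without MHC-Plin5 4, which lies well left of the point for Snord118, Snord53, Snora44, Snora33 and Snora73a.

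Of the called genes, Snord49a and Snord49b share a containing gene, the noncoding 2410006H16Rik on chromosome 11, which had no row of its own. Snord49a measured 6.26, 6.51, 6.60 and 5.74 in the controls and 7.43, 7.41, 7.21 and 7.07 in the MHC-Plin5 hearts, each in the order of heart number 1 to 4, as in all such lists here. The groups did not overlap, and control 4 was the lowest heart. Its difference was 1.00 ± 0.18 (SE), a 2.01-fold rise (limma, adjusted p = 0.0131). Snord49b measured 9.82, 9.98, 10.002 and 9.39 in the controls and 10.57, 10.69, 10.52 and 10.39 in the MHC-Plin5 hearts. Control 4 was again the lowest, and the groups did not overlap. The difference was 0.75 ± 0.14, a 1.68-fold rise (limma, adjusted p = 0.0180). In both, MHC-Plin5 4 was the lowest of its group. Snord49a was called with any 1 heart left out (highest adjusted p 0.0497), and Snord49b was not called without control 1 (0.0595) or MHC-Plin5 2 (0.0681).

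Snord104, in the noncoding Gm36220 on chromosome 11, measured 9.43, 9.27, 9.62 and 9.48 in the controls and 9.87, 10.06, 9.91 and 10.44 in MHC-Plin5 hearts. Here MHC-Plin5 4 was the highest heart, and the groups did not overlap. The difference was 0.62 ± 0.14 (limma, adjusted p = 0.0344) and 0.50 ± 0.11 without MHC-Plin5 4 (adjusted p = 0.0297). Snord15a is one of the U15 snoRNAs and lies in Rps3, a small-subunit ribosomal protein gene on chromosome 7. It measured 5.40, 5.50, 5.66 and 5.39 in the controls and 5.94, 6.02, 5.93 and 6.46 in MHC-Plin5 hearts, again with MHC-Plin5 4 highest and no overlap. Its difference was 0.60 ± 0.13 (limma, adjusted p = 0.0339). Both calls were lost without any 1 of the 4 controls or without MHC-Plin5 2, with adjusted p of 0.0661 to 0.104 for Snord104 and 0.0640 to 0.109 for Snord15a. The differences themselves stayed between 0.50 and 0.68 and between 0.47 and 0.66 with 1 heart left out.

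Snord82 lies in Ncl on chromosome 1, the gene of nucleolin, which binds nascent ribosomal RNA. It measured 9.49, 9.72, 10.04 and 9.73 in the controls and 10.29, 10.50, 10.06 and 10.40 in MHC-Plin5 hearts. The groups did not overlap, but control 3 and MHC-Plin5 3 lay within 0.03 of each other. The difference was 0.57 ± 0.14 (limma, adjusted p = 0.0455). This was the call nearest to the threshold, and it was lost without control 1, 2 or 4 or without MHC-Plin5 1, 2 or 4 (adjusted p of 0.0612 to 0.151). Counted over the class, leaving out control 1, 2, 3 or 4 left 1, 2, 3 and 2 called box C/D snoRNAs, and leaving out MHC-Plin5 1, 2, 3 or 4 left 4, 1, 6 and 5. Of all 19938 genes, 415 were called higher with all hearts and 177, 238, 170 and 202 without control 1, 2, 3 or 4. Without MHC-Plin5 1, 2, 3 or 4 they were 413, 177, 236 and 614.

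**Figure D2:**
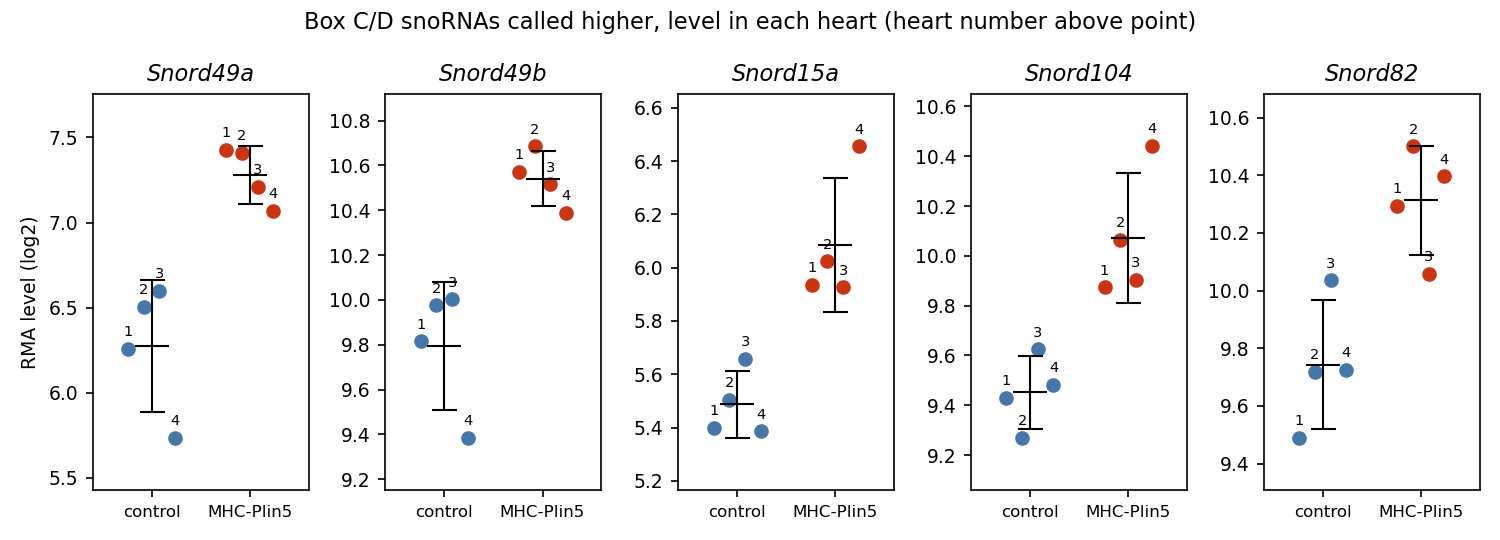
Log2 RMA level (vertical axes, each with its own range) of the 5 called box C/D snoRNAs in each heart, with the heart number above each point, and bars for the mean and SD of 4 hearts. In all 5 plots the MHC-Plin5 points lie above the control points, by a wide margin in Snord49a and by a narrow one between control 3 and MHC-Plin5 3 in Snord82.

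A further 5 box C/D snoRNAs had groups that did not overlap without passing the threshold. Snord73b, in Rps3a1, measured 6.56, 6.17, 6.68 and 5.83 in the controls and 7.09, 7.06, 6.70 and 7.34 in MHC-Plin5 hearts, a difference of 0.73 ± 0.19 (limma, adjusted p = 0.0639). Snord47 lies in Gas5, a noncoding gene that holds several box C/D snoRNAs, and measured 7.38, 7.73, 7.76 and 6.90 against 8.47, 8.64, 8.08 and 7.76. MHC-Plin5 4 was its lowest MHC-Plin5 heart, at the level of the highest control. The difference of Snord47 was 0.80 ± 0.22 (adjusted p = 0.0848), and without MHC-Plin5 4 it was 0.96 ± 0.21 and called (adjusted p = 0.0296). Snord33 and Snord35a both lie in Rpl13a, and the snoRNAs of this gene are known from hamster and mouse cells to take part in the response to excess lipid. Snord33 measured 6.60, 6.47, 6.58 and 5.95 in the controls and 6.90, 6.61, 6.81 and 7.24 in MHC-Plin5 hearts, a difference of 0.49 ± 0.17 (adjusted p = 0.161). Snord35a measured 9.30, 9.50, 9.50 and 9.16 against 9.60, 9.61, 9.52 and 9.75, a difference of 0.26 ± 0.11 (adjusted p = 0.258). The gap between the nearest hearts was small in both, and neither was called. The fifth was Snord35b, with a difference of 0.27 ± 0.12 (adjusted p = 0.290).

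The other 21 box C/D snoRNAs had overlapping groups, with differences from -0.12 in Snord85 to 1.12 in Snord118. Snord42a, in Rpl23a, was the one among them with the smallest p: it measured 5.30, 5.44, 5.56 and 5.13 in the controls and 5.91, 6.07, 5.39 and 5.85 in MHC-Plin5 hearts. MHC-Plin5 3 lay among the controls, the difference was 0.44 ± 0.15 (limma, adjusted p = 0.154), and it was called with MHC-Plin5 3 left out. Snord87 followed with 0.44 ± 0.15 (adjusted p = 0.164). Snord14e, in the chaperone gene Hspa8, had its highest heart among the controls (control 1, 9.06, against 7.80 to 8.19 in the other 3) and 8.42 to 8.71 in MHC-Plin5 hearts. Snord57, in Nop56 and the box C/D snoRNA with the highest signal, measured 12.04 to 12.31 in control and 12.05 to 12.39 in MHC-Plin5 hearts, a difference of 0.11 ± 0.11. Snord38a and Snord73a were the least variable, at 3.51 to 3.75 and 3.96 to 4.12 over all 8 hearts. Differences below 0 were seen in 3 box C/D snoRNAs, Snord85 (-0.12), Snord8 (-0.06) and Snord53 (-0.03), all with an interval that holds 0.

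MHC-Plin5 4 carried by far the highest level of some snoRNAs. Snord118 is U8, which has no containing gene here and is known from Xenopus to be needed for maturation of the large-subunit ribosomal RNAs. It measured 4.70, 4.77, 4.92 and 4.90 in the controls, 5.24, 4.71 and 5.14 in MHC-Plin5 1 to 3 and 8.67 in MHC-Plin5 4. That excess of 3.64 over the mean of the other 3 MHC-Plin5 hearts was the largest of all 19938 genes. The group difference of Snord118 was 1.12 ± 0.68 (limma, adjusted p = 0.459) with all hearts and 0.21 ± 0.14 without MHC-Plin5 4. Snord53, in Wdr43, measured 6.49, 6.47, 8.31 and 5.90 in the controls and 6.41, 6.23, 6.05 and 8.33 in MHC-Plin5 hearts, so that 1 heart of each group was high. Its difference was -0.03 ± 0.55, and -0.56 without MHC-Plin5 4 or 0.47 without control 3.

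Several box H/ACA snoRNAs were also high in that heart. Snora44 and Snora16a lie in the noncoding Snhg12 on chromosome 4. Snora44 measured 6.73, 7.71, 7.89 and 7.77 in the controls and 7.94, 8.09, 7.53 and 9.83 in MHC-Plin5 hearts. Control 1 was low and MHC-Plin5 4 high, and the other 6 hearts lay within 7.53 to 8.09. Snora73a and Snora73b, the U17 snoRNAs of Snhg3 that act in small-subunit processing, gave 7.40 to 7.80 and 6.93 to 7.58 in the controls. Snora73a measured 7.61, 7.80, 7.81 and 9.47 in MHC-Plin5 1 to 4, and Snora73b 7.45, 7.39, 7.50 and 8.93. Snora33, in Rps12, measured 6.59 to 7.12 in the controls and 7.37, 6.67, 6.99 and 8.96 in MHC-Plin5 hearts. In these 4 the first 3 MHC-Plin5 hearts lay among or near the controls. Their differences with all hearts were 0.83 (Snora44), 0.51 (Snora73a), 0.61 (Snora73b) and 0.54 (Snora33), and without MHC-Plin5 4 they were 0.33, 0.08, 0.24 and 0.05. The excess ranked 10, 15, 25 and 12 among all genes, in the same order of names, and that of Snord53 ranked 7.

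The rest of the box H/ACA class differed in how MHC-Plin5 4 stood to the other hearts. Snora52, in Rplp2 and with the highest signal of the class, went the other way: it measured 12.50 to 12.64 in the controls, 12.72, 12.67 and 12.62 in MHC-Plin5 1 to 3 and 11.91 in MHC-Plin5 4. Its difference was -0.08 ± 0.16 with all hearts and 0.11 ± 0.09 without MHC-Plin5 4. Snora16a had the smallest p of its class. It measured 8.34, 8.64, 8.86 and 8.76 in the controls and 9.15, 9.12, 8.82 and 9.55 in MHC-Plin5 hearts, with MHC-Plin5 3 among the controls (difference 0.51 ± 0.16, limma, adjusted p = 0.121; 0.38 ± 0.14 without MHC-Plin5 4). Snora69, in Rpl39, measured 5.12, 4.82, 4.96 and 4.58 in the controls and 5.26, 5.33, 5.30 and 6.55 in MHC-Plin5 hearts. The groups did not overlap, and the difference was 0.74 ± 0.26 (adjusted p = 0.164), or 0.43 ± 0.13 without MHC-Plin5 4 (adjusted p = 0.0866). Snora62, in Rpsa, gave 0.39 ± 0.14 and hardly moved without that heart (0.36 ± 0.15). Snora7a (0.35 ± 0.15), Snora23 (0.37 ± 0.17), Snora21 (0.26 ± 0.13) and Snora3 (0.41 ± 0.24) had adjusted p of 0.264 to 0.453. The lowest difference of all 51 was that of Snora20 in Tcp1, -0.27 ± 0.15 (adjusted p = 0.397).

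Over the class, MHC-Plin5 4 exceeded the mean of the other 3 MHC-Plin5 hearts by a median of 0.58 in box H/ACA snoRNAs and 0.10 in box C/D snoRNAs, where the median of all genes was 0.13. The excess was above 0.5 in 13 of 20, in 4 of 31 and in 7.04% of all genes. MHC-Plin5 4 was the highest of the 8 hearts in 14 of the 20 box H/ACA snoRNAs (70.0%), in 14 of the 31 box C/D snoRNAs (45.2%) and in 21.5% of all genes. MHC-Plin5 2 was the highest in a further 10 box C/D snoRNAs (32.3%), in 0 of the 20 of the box H/ACA class and in 4.73% of all genes. Each heart was also set against the mean of the controls. Over the box H/ACA class its median deviation was -0.08, 0.10, 0.10 and -0.10 for the controls and 0.13, 0.10, 0.10 and 0.77 for the MHC-Plin5 hearts. In the box C/D class it was -0.02, 0.04, 0.14 and -0.16 in the controls and 0.19, 0.27, 0.21 and 0.39 in MHC-Plin5 hearts. On these values the first 3 MHC-Plin5 hearts were at about the level of the higher controls for box H/ACA snoRNAs. For box C/D snoRNAs they were above all 4 controls. The values were not set against the level of each array. Over all genes the median deviation was -0.04, 0.10, -0.02 and -0.05 in the controls and -0.06, -0.06, -0.07 and 0.07 in MHC-Plin5 hearts. Control 2, among the higher controls for box H/ACA snoRNAs, was thus also high over all genes, and MHC-Plin5 1 to 3 were low. A high MHC-Plin5 4 was not particular to snoRNAs. Over 14 other small RNAs (described below) the median deviation was -0.07, 0.01, 0.12 and -0.06 in the controls. In MHC-Plin5 hearts it was -0.02, -0.06, -0.06 and 0.45.

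**Figure D3:**
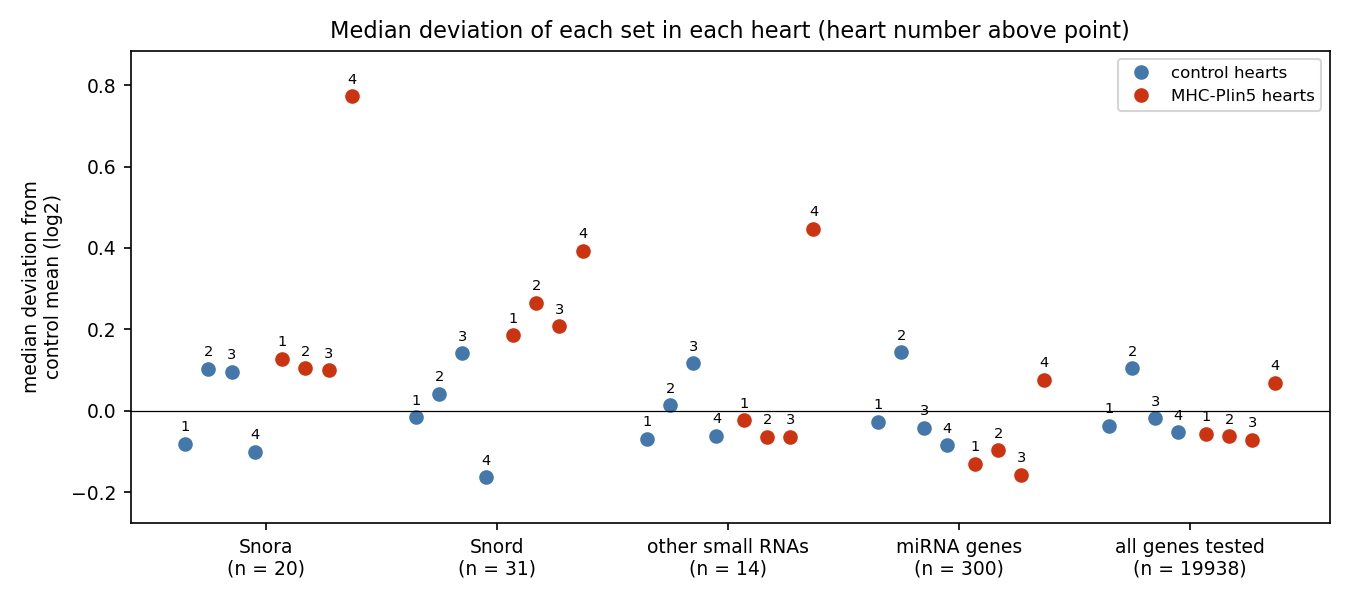
Median over the genes of a set of each heart's deviation from the control mean (vertical axis, log2), for the box H/ACA class (Snora), the box C/D class (Snord), 14 other small RNAs, 300 miRNA genes and all 19938 genes. Each point is 1 heart with its number; MHC-Plin5 4 stands at 0.77 in the box H/ACA set, while all 4 MHC-Plin5 points lie above the 4 control points in the box C/D set.

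The excess of MHC-Plin5 4 went with the length of the RNA. Box H/ACA snoRNAs are the longer class, with a median RefSeq length of 125 nt (61 to 205) against 68 nt (45 to 148) for box C/D. In the 28 snoRNAs of up to 100 nt the median excess was 0.06 and 1 was above 0.5, Snord53. In the 19 over 100 and up to 150 nt the median was 0.59 with 13 above 0.5, and in the 4 longer ones it was 1.02 with 3 above 0.5. Of the box C/D class, 4 are over 100 nt (Snord118, Snord15a, Snord15b and Snord22, the U22 snoRNA), and their median excess was 0.68. Over the 51 snoRNAs the excess and the length had a Pearson r of 0.45 and a Spearman rho of 0.62, and within box C/D (n = 31) 0.53 and 0.63. Within box H/ACA (n = 20) they were 0.17 and -0.02. These points share the same 4 arrays and differ in class and probe set, so the values are only descriptive. The group difference without MHC-Plin5 4 had an r of -0.13 and a rho of -0.10 with length. Recovery of short RNAs, which column kits such as the one named in the labels can limit, was not measured, and its part in these values was not tested.

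**Figure D4:**
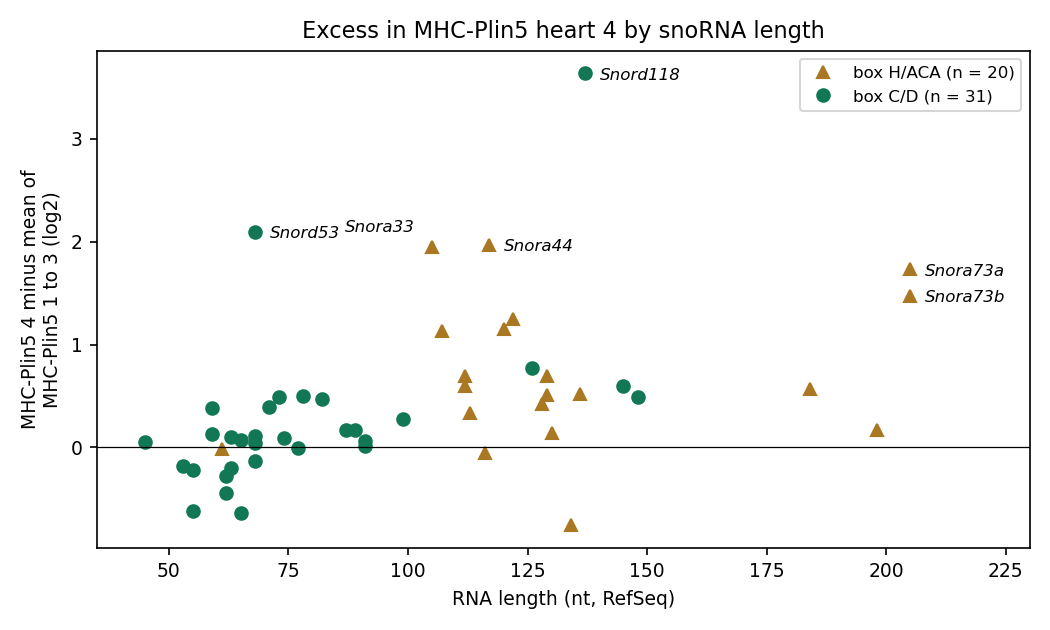
Level in MHC-Plin5 4 minus the mean of MHC-Plin5 1 to 3 (vertical axis, log2) against RefSeq RNA length in nt (horizontal axis) for the 51 snoRNAs. Circles are box C/D and triangles box H/ACA; most circles of up to 100 nt lie near 0, and Snord118, Snord53, Snora44, Snora33, Snora73a and Snora73b are the named high points.

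Neighbours within 1 gene did not always move alike. In 10 containing genes 2 members were measured, 20 snoRNAs in all. In Ncl the difference was 0.57 for Snord82 and 0.04 for Snora75, a member of the other class, and Ncl itself was called (below). In Rps3a1 it was 0.73 for Snord73b and 0.04 for Snord73a. The Rps3 pair differed as well, with 0.60 for the called Snord15a and 0.23 ± 0.16 for Snord15b. In Rack1 the values were 0.24 for Snord96a and 0.04 for Snord95, and in Rpl23a 0.44 for Snord42a and 0.26 for Snord42b. The widest gap between partners was 0.70, in Rps3a1. None of these gaps was tested, and the probe sets of partners differ in signal and so may differ in how much of a change they show.

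Of the 42 containing genes 25 were measured by a row with 1 symbol, and 21 of these had a difference above 0, with a median of 0.27 (0.24 without MHC-Plin5 4). By limma 2 of the 25 were called higher and 0 lower, against 2.08% and 1.17% of all genes. At an unadjusted p under 0.05, 14 were higher (8.69% of all genes), and in 10 all MHC-Plin5 hearts lay above all controls (6.24% of all genes). Ncl measured 10.13, 10.44, 10.24 and 10.14 in the controls and 10.58, 10.68, 10.70 and 10.76 in MHC-Plin5 hearts, a rise of 0.44 ± 0.10 (limma, adjusted p = 0.0388). Kansl2, which codes for a subunit of a histone acetylation complex and contains Snora2b, measured 9.21, 9.18, 9.29 and 9.06 against 9.53, 9.54, 9.75 and 9.77, a rise of 0.46 ± 0.10 (adjusted p = 0.0334). Both groups were apart in each gene, but the call of Ncl was lost without control 1, 3 or 4 or MHC-Plin5 2 or 3, and that of Kansl2 without any 1 control or MHC-Plin5 2 or 3 (adjusted p up to 0.128 and 0.0996). Snora2b in Kansl2 had a difference of 0.23 ± 0.18. Gas5, which contains Snord47, gave 0.62 ± 0.18 (adjusted p = 0.106) and Rps12, which contains Snora33, 0.51 ± 0.13 (adjusted p = 0.0569). Rps3 gave 0.23 ± 0.10 and Rps3a1 0.27 ± 0.13. At the other end Rbmx, an RNA-binding protein gene, gave -0.28 ± 0.17 while its Snord61 gave 0.33 ± 0.22, and Tcp1 gave 0.36 ± 0.10 while its Snora20 gave -0.27.

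Both members of a pair were above 0 in 21 of the 29 pairs of a snoRNA and a measured containing gene. Across the 29 pairs the differences had a Pearson r of 0.24 and a Spearman rho of 0.14, in box C/D (n = 16) 0.28 and 0.10, and in box H/ACA (n = 13) 0.36 and 0.31. These points share the same 8 arrays, and several share a containing gene, so they are a description.

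**Figure D5:**
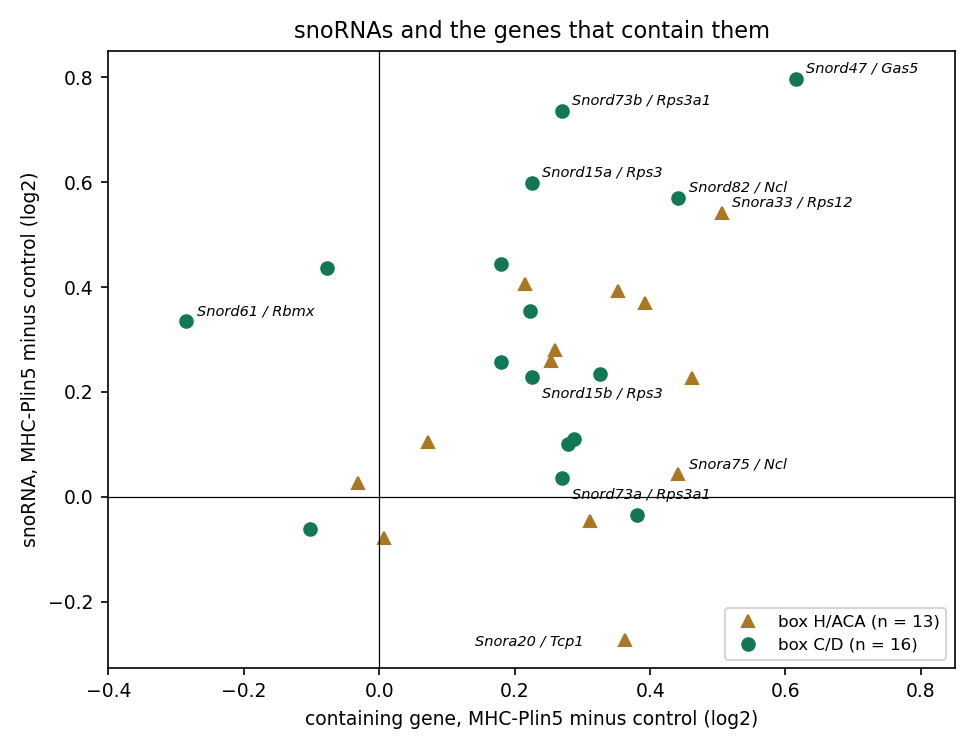
Difference in log2 level, MHC-Plin5 minus control, of a snoRNA (vertical axis) against that of the measured gene that contains it (horizontal axis) for 29 pairs. Circles are box C/D and triangles box H/ACA; the 2 points of Rps3a1 and the 2 of Ncl stand one above the other, since 1 gene contains both snoRNAs.

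The proteins that carry the snoRNAs were read from the same arrays. Of the 4 core proteins of the box H/ACA particle 1 was called higher, where 2.08% of all genes were. Nhp2, which binds the guide RNA, measured 6.86, 6.89, 7.04 and 6.77 in the controls and 7.88, 8.08, 8.09 and 8.0 in MHC-Plin5 hearts. The groups were far apart, a 2.18-fold rise (1.12 ± 0.10, limma, adjusted p = 0.000202), and it was called with any 1 heart left out. Dkc1, the pseudouridine synthase, gave 0.10 ± 0.10, Gar1 0.21 ± 0.12 and Nop10 0.04 ± 0.10, none called. Of the 4 core proteins of the box C/D particle 0 were called by limma, where 2.08% and 1.17% of all genes were called higher and lower. At an unadjusted p under 0.05, 2 were higher (8.69% of all genes). The 2 particles were not compared by a test. Nop58 was nearest, with 7.25, 7.12, 7.01 and 6.97 in the controls and 7.32, 7.75, 7.98 and 7.58 in MHC-Plin5 hearts (0.57 ± 0.14, adjusted p = 0.0522). Fbl (fibrillarin, the methyltransferase) gave 0.29 ± 0.10, Nop56 0.29 ± 0.14 and Snu13 -0.07 ± 0.08.

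Of 15 genes for the assembly and transport of these particles 0 were called by limma (4 at an unadjusted p under 0.05, all higher), with a median difference of 0.18. Of all genes, 2.08% were called higher and 1.17% lower, and at an unadjusted p under 0.05 8.69% were higher and 7.86% lower. The 3 with the smallest p were Znhit6 (0.40 ± 0.10, adjusted p = 0.0608), Nufip1 (0.33 ± 0.10) and Pih1d1 (0.28 ± 0.10), which act in the assembly of box C/D particles. Of 12 genes for the trimming of snoRNAs and the turnover of their host RNAs 0 were called, with a median of 0.02. At an unadjusted p under 0.05, 0 of these 12 were higher and 1 was lower (8.69% and 7.86% of all genes). Exosc10, a nuclease of the nuclear exosome, gave -0.26 ± 0.09, Parn 0.35 ± 0.18 and Tent4b 0.29 ± 0.14. Of 30 genes of ribosome assembly and ribosomal RNA synthesis 6 were called higher (2.08% of all genes) and 0 lower, 28 had a difference above 0, and the median was 0.37. These were Gnl3 (1.04 ± 0.18), Rrp12 (0.95 ± 0.13), Bop1 (0.70 ± 0.11) and Pes1 (0.57 ± 0.10), which take part in the assembly of the ribosomal subunits, and Nip7 (0.53 ± 0.12) and Ncl. Pes1 was not called without control 3 (adjusted p = 0.0508), and Nip7 was called only with all hearts or without MHC-Plin5 4.

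Other small noncoding RNAs on the array give a comparison for both classes. Among 14 of them (small nuclear RNAs, small Cajal body RNAs, Y RNAs and the RNA parts of ribonucleases and telomerase), 1 was called higher and 0 lower, where 2.08% and 1.17% of all genes were, and the median was 0.09, or -0.06 without MHC-Plin5 4. The called one was Rnu3a, the U3 RNA, which is itself a box C/D RNA of ribosomal RNA processing. It measured 4.63, 4.60, 4.89 and 4.88 in the controls and 4.99, 5.52, 5.76 and 5.56 in MHC-Plin5 hearts, with no overlap (0.71 ± 0.16, limma, adjusted p = 0.0350). The call was lost with any 1 heart left out except MHC-Plin5 1 (adjusted p up to 0.113). Scarna17, a small Cajal body RNA, measured 9.72, 9.79, 9.69 and 9.25 in the controls and 8.86, 8.70, 8.71 and 9.47 in MHC-Plin5 hearts. It was thus lower in the first 3 MHC-Plin5 hearts than in any control and not in MHC-Plin5 4 (-0.68 ± 0.18, adjusted p = 0.0714; -0.86 without MHC-Plin5 4, adjusted p = 0.00714). MHC-Plin5 4 was also the highest heart for Rny1, at 9.83 against 7.12 to 8.67 in the other 7, and for Rpph1, the ribonuclease P RNA, at 13.58 against 12.75 to 13.19. The same heart was highest for Rmrp, Rnu12, Rnu5g, Rny3, Scarna13 and Terc, but not for the rest of the 14. Of the 300 genes of miRNAs 0 were called by limma, where 2.08% and 1.17% of all genes were called higher and lower. At an unadjusted p under 0.05, 0 were higher and 17 lower (8.69% and 7.86% of all genes). Their median difference was -0.08, and 26.3% of them were above 0 (42.5% of all genes). The median deviation of the miRNA genes was -0.13, -0.10 and -0.16 in MHC-Plin5 1 to 3 and 0.08 in MHC-Plin5 4.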

How the data were processed

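Total RNA of 8 hearts, purified by a Qiagen kit, was labelled for whole-transcript arrays with Ambion and Affymetrix reagents, per the labels' protocols. The deposited log2 levels are RMA summaries that the authors computed in Expression Console of Affymetrix, according to the submitters' processing notes, with the version not given in the sources used here. They run from 2.02 to 14.66. Scanner files were not used here, so no batch or background setting was tested, and the 4 arrays per group limit the precision. As the series text speaks of 4 mice in each group, a heart is treated as 1 animal.

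GEO's platform annotation gave 1 symbol to 21789 of 35556 rows, several to 1621 and none to 12146. Of the snoRNAs, 17 of 20 and 23 of 31 had a mean of at least 5, and no filter was applied in the main setting. The test was limma 3.58.1 in R 4.3.3 (lmFit, then eBayes without trend or robust variances, two-sided), run on all 19938 genes with genotype as the only term. Python 3.11.15, pandas 2.3.3 and matplotlib 3.10.9 made tables and plots, and the gene test was checked on simulated data. RefSeq (GRCm38.p6) gave lengths, containing genes and promoters; all 51 snoRNAs matched by gene. No snoRNA sequence was at hand, so none is printed. Values of some containing genes are not reported here.

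The members, lists, motifs and tests were chosen with earlier results of these data known. Named snoRNAs are those called, the 8 with the smallest p, the 4 with the highest mean and the widest-ranging in each group and class, with their containing genes, all core proteins, and of the 3 longer lists the called members and the 3 with the smallest p. Other names (Snord33, Snord35a, partners within a gene, hearts and genes that stand apart) were picked after their values were seen. Same-numbered hearts of the 2 groups had correlations of 0.19, 0.03, -0.11 and -0.04 in their deviations from the group means, so the numbers were not taken to pair the hearts. Alternatives were filters on the mean, further normalization, variance settings, array weights, the choice of rows, a replicate block, the array median as a covariate, other thresholds and each heart left out.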

Additional observations from a re-analysis of the deposited data

Results flagged for a closer look

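Among 106 groups of 4 hearts checked, 11 had 1 heart whose gap to its neighbour was a larger share of the group's range than Dixon's 95% limit allows. Chance alone gives about 1 in 20 such groups where the groups are independent and the values normal. These groups share the same 8 arrays and are not independent. Of the 11 flags, 7 were MHC-Plin5 4, including the mean over box H/ACA snoRNAs that were also checked singly.

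MHC-Plin5 4 was high for Snord118 (8.67 against 4.71 to 5.24 in the other 3 MHC-Plin5 hearts), Snord53 (8.33 against 6.05 to 6.41), Snora69 (6.55 against 5.26 to 5.33), Snora73a (9.47 against 7.61 to 7.81) and Snora73b (8.93 against 7.39 to 7.50). It was low for Snora52 (11.91 against 12.62 to 12.72). The mean level over the 20 box H/ACA snoRNAs was 7.58 in MHC-Plin5 4 and 6.83 to 6.86 in the other 3. The other flagged values were low ones: control 1 for Snora2b (4.60 against 5.06 to 5.13) and Snora44 (6.73 against 7.71 to 7.89), control 2 for Snord42b (5.46 against 5.79 to 5.85), and MHC-Plin5 2 for Snord85 (4.44 against 4.71 to 4.75).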

How the results depend on the processing

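The number of box C/D snoRNAs called higher, 5, fell to 3 when only genes with a mean of 7 or more were tested (10 of the class), 1 with every row of the table tested, 3 with a replicate block, 0 at an adjusted p under 0.01, and 1 to 6 with 1 heart left out. Under the replicate block Snord49a, Snord49b and Snord47 were called and Snord104, Snord15a, Snord82 and Ncl were not; of the same-numbered hearts, only number 1 correlated best with its own number. No box H/ACA snoRNA was called in any setting run. The class medians stayed above 0 under each: with 1 heart left out they were 0.11 to 0.36 (H/ACA) and 0.23 to 0.30 (C/D), with further quantile normalization 0.32 and 0.30, with median centring 0.36 and 0.30. The 2 called containing genes became 5 with a filter at 7, an intensity trend (also with robust variances) or a threshold of 0.1, 4 with median centring or the array median as covariate, 8 with array weights, 0 with every row, the block or a threshold of 0.01, and 0 to 3 with 1 heart left out. Over all genes, those called higher went from 415 in the main setting to 522 of 8899 with the filter at 7 and 884 with array weights. They numbered 476 with the intensity trend, 495 with robust variances added, 472 with median centring and 405 with the covariate. The replicate block gave 330, every row 220 of 35556 rows, and 1 heart left out 170 to 614. Of the other small RNAs 0 were called higher with a filter at 7, every row, the array median as covariate, control 2 and MHC-Plin5 4 both left out, or a threshold of 0.01 (0 to 1 with 1 heart left out). With quantile normalization, centring, array weights, both hearts left out or a threshold of 0.1, 1 was called lower (0 to 1 with 1 heart left out). Their median was -0.058 with array weights, -0.071 without both hearts and -0.061 to 0.13 with 1 heart left out. Among named genes, Snora52 turned to 0.061 with array weights, 0.14 without both hearts and -0.16 to 0.11 with 1 heart left out; Snord53 to 0.028 with quantile normalization, 0.00682 with centring, 0.12 with the covariate and -0.56 to 0.47 with 1 heart left out; Nop10 to -0.010 and Rplp2 to -0.011 with quantile normalization, and Rplp2 ran from -0.034 to 0.075 with 1 heart left out. A changed threshold moves the calls by its construction; for the other settings the cause was not tested. Of the remaining values, 991 for named genes kept direction and side of the threshold, 35 passed it and 48 no longer did. RMA compresses low signals, so 11 snoRNAs with a mean under 5 may show less change than they had.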

Other observations

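A further 41 rows of the table listed several symbols of which at least 1 was a snoRNA. They are not members and are not named, since the symbol a value belongs to is not settled. Many of these rows repeat the same values: they held 22 different sets, of which 19 had a difference above 0. Copies of 1 box C/D family took 24 of the rows with 7 different sets of values, and their differences ran from 0.74 to 1.03. With limma run over every row of the table, 0 of the 41 were called (adjusted p of 0.0913 to 0.173 in this family). Of all 35556 rows, 220 were called higher and 81 lower. The other 17 rows, with 15 different sets, ran from -0.28 to 0.83.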
